A study of Mus musculus with 2 samples.

Results

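The 55 genes described here encode the DNA replication machinery of the mouse, from the origin recognition complex to the polymerases, and were taken as a named list out of 49943 genes of the RefSeq table on chromosomes 1 to 19, X and Y. All 55 were found in the table. They were placed in 8 groups by role: 8 genes of origin recognition and licensing, 13 of the helicase, 6 of the sliding clamp and its loader, 9 of the polymerases and primase, 7 of single-strand binding and Okazaki fragment maturation, 4 of nucleotide supply, 4 of chromatin assembly and DNA methylation, and 4 that support the fork. What was measured is not their expression but the number of DNA break ends that lay in each gene. END-seq embeds cells in agarose, attaches an adapter to the ends of DNA double-strand breaks and sequences outward from each end, so that a read starts where a break end was.

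The study set CD43- B cells from the spleens of mice aged 4 to 8 weeks, activated in culture (IL-4 at 25 ng/mL, anti-CD40 at 1 µg/mL, 24 to 28 h) and labelled S phase, beside the same kind of cells labelled G1 phase. The G1 cells, titled quiescent, were also kept in culture for 24 to 28 h, without these agents. The study asked where breaks that depend on replication arise in primary cells without an added damaging agent. There was 1 library per condition, named ATR+c in both titles. The labels do not spell out that name, and give no strain, no genotype and no number of pooled mice. Any difference between the libraries has no replicate check and no p-value, and may be one of the libraries rather than of the conditions. Activation and the S-phase label go together here, so phase and activation cannot be told apart. Below, S phase and G1 name these libraries. The S-phase library held 21997695 reads, of which 20543572 lay on chromosomes 1 to 19, and the G1 library 28933109, of which 26889564 did. Reads stacked more deeply in G1 (3.84 reads per covered position) than in S phase (2.84). Break ends do not show which genes a cell expresses, so the labelled cell type could not be checked on markers here. The median log2 ratio, S over G1, was 0.18 over 6 B-cell, -0.24 over 5 T-cell, 0.058 over 4 myeloid and 0.40 over 3 erythroid genes, and single T-cell genes ran from -0.86 to 0.94.

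DNA replication starts when the origin recognition complex, Cdc6 and Cdt1 load the Mcm2 to Mcm7 helicase onto DNA in G1. In S phase Cdc45 and the GINS complex switch the helicase on, polymerase alpha and primase lay down primers, the clamp loader places the Pcna ring, and polymerases delta and epsilon copy the strands. Resting B cells hold little of this machinery, and E2F transcription factors switch many of its genes on when a B cell is activated and enters the cycle.

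For each gene, reads on both strands were summed over the gene and 2 kb to each side, scaled to the library's reads on chromosomes 1 to 19, and compared as S phase over G1. Over all 55 genes the 2 libraries held 20305 S-phase and 22942 G1 reads, a scaled ratio of 1.16 with a 95% counting interval of 1.14 to 1.18. Such intervals cover counting error only, and are too narrow where reads are copies of each other. In bulk DNA, more cells with a break and more breaks per cell cannot be told apart. The replication genes leaned to the S-phase side: their median log2 ratio was 0.29 (range -0.31 to 1.01), against 0.11 over the 35138 genes that held at least 100 reads in both libraries together and 0.14 over the 19639 protein-coding genes among these. Set against the median of all genes, the replication genes lay 0.18 higher on the log2 scale.

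A gene was called higher or lower in S phase when its ratio was at least 1.5 or at most the inverse, with at least 100 reads in the libraries together, which all 55 genes held. By this rule 10 of 55 were higher, against 11.9% of all genes and 11.1% of protein-coding genes. None was lower, against 5.83% of all genes and 3.39% of protein-coding genes. The 10 were Rrm2, Rfc4, Pcna, Rnaseh2a, Mcm6, Gins2, Tk1, Cdt1, Rfc5 and Rpa3, and of these Rrm2 alone reached a ratio of 2, which 2.4% of all genes and 1.99% of protein-coding genes did. None was at 0.5 or below, against 1.52% and 0.764%. The counting interval lay above 1 for 35 of 55 genes, against 31.7% of all genes and 38% of protein-coding genes, and below 1 for 4 genes (Orc2, Orc3, Pola1 and Pold3), against 13.3% and 11.1%. The log2 ratio was above 0 for 42 of 55, against 62.7% and 68%. Counting each covered position once, which sets stacked reads aside, left a median log2 ratio of 0.31 against 0.15 over all genes, with 8 of 55 genes at a ratio of at least 1.5 against 11.2% of all genes and 10.4% of protein-coding genes. Scaling to the median gene lowered every log2 ratio by 0.11 and left 7 of 55 genes called higher, against 7.86% of all genes and 6.98% of protein-coding genes. Under that scaling Mcm2, Mcm3, Rfc3, Prim2 and Wdhd1, whose ratios lay between 1 and the all-gene median of 1.08, are by construction on the G1 side.

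**Figure D1:**
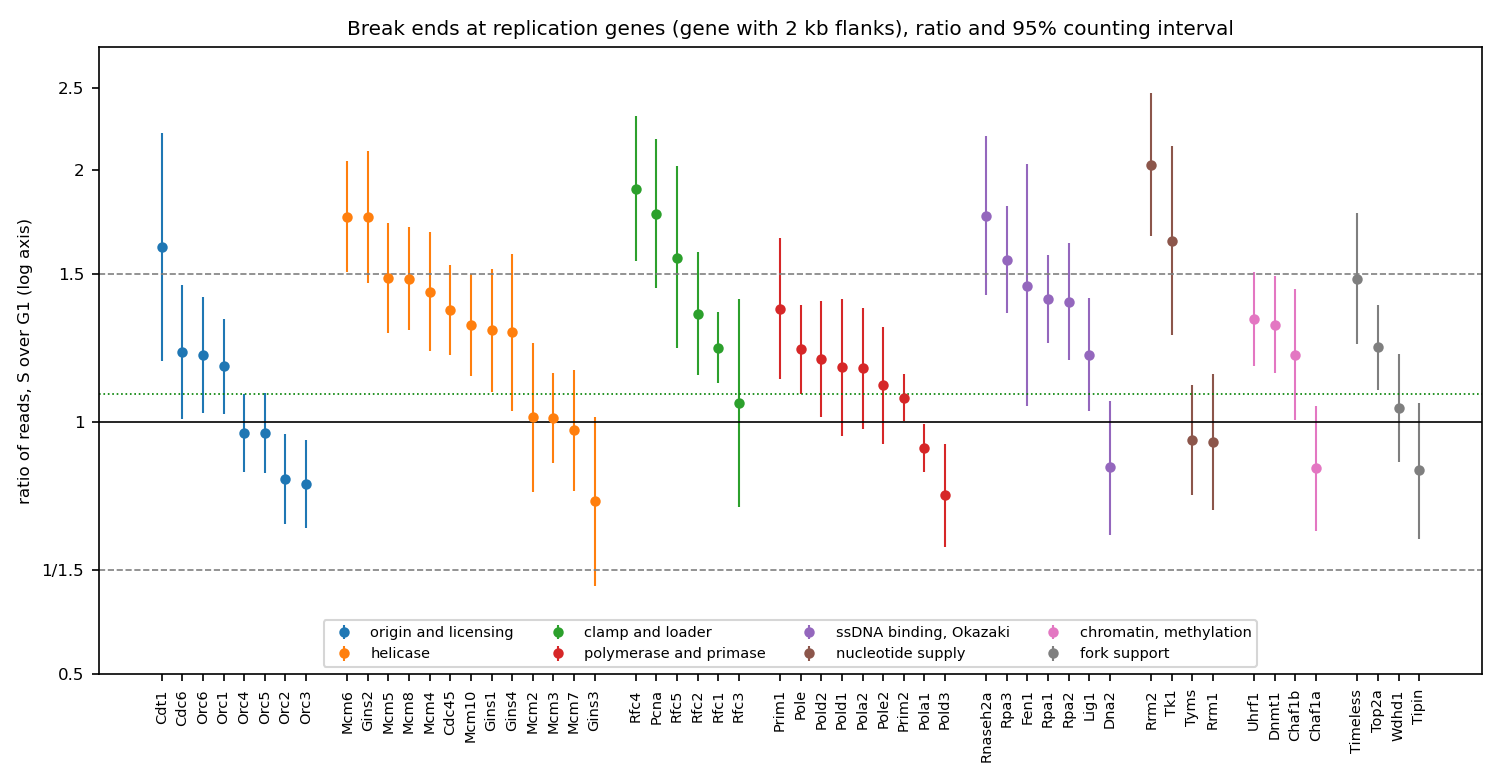
Ratio of scaled reads, S phase over G1, on a log axis for each of the 55 replication genes with 2 kb flanks, by role group. Points are ratios of 1 library to 1 library, bars are 95% counting intervals, dashed lines mark 1.5 and its inverse, the solid line marks 1 and the dotted line the median of all genes, 1.08. The 10 genes at or above 1.5 come from 5 of the groups, and no gene lies below the lower dashed line.

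The origin genes, which mark and license start sites, were the group nearest to equal: 3127 reads in S phase and 4097 in G1 gave a scaled ratio of 0.999 (0.953 to 1.05) and a median log2 ratio of 0.090, below the 0.11 of all genes. Cdt1, the licensing factor that geminin holds in check (chr8:122568015-122573130 on GRCm38.p6), held 95 S-phase and 77 G1 reads, a ratio of 1.61 (1.18 to 2.21), and was the only one called. Cdc6, the loader that works with it, held 229 and 247 reads (1.21, 1.01 to 1.46), and Orc6 301 and 328 (1.20, 1.02 to 1.41). Among the subunits of the recognition complex, Orc3 held 450 and 698 reads (0.844, 0.748 to 0.951) and Orc2 432 and 661 (0.855, 0.756 to 0.967). By reads, the intervals of these 2 lay below 1. Orc1, the largest subunit, stood at 1.16, while Orc4 (0.971) and Orc5 (0.970) were near 1. When each position was counted once, the intervals of Orc3 and Orc2 held 1. Orc3 then stood at 0.909 (0.722 to 1.14), and Orc2 moved to the S-phase side at 1.03 (0.815 to 1.31, log2 ratio 0.045).

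The helicase genes lay higher, with 4199 S-phase and 4243 G1 reads, a ratio of 1.30 (1.24 to 1.35) and a median log2 ratio of 0.38. Mcm6, a subunit of the ring (chr1:128331575-128359705), held 404 S-phase and 301 G1 reads, a ratio of 1.76 (1.51 to 2.05). Gins2, part of the complex that activates the ring (chr8:120581266-120589075), held 287 and 214 (1.76, 1.47 to 2.11). Mcm5 held 373 and 329 (1.48, 1.28 to 1.73), just under the threshold, as did Mcm8 (1.48), a helicase of recombination repair. By reads, the subunits of one ring did not share a ratio: Mcm4 stood at 1.43, whereas Mcm2 (1.01) and Mcm3 (1.01) were near 1. Mcm7 held 254 and 340 reads (0.978, 0.828 to 1.15). With positions counted once, Mcm2 to Mcm7 all lay above 1 and their intervals overlapped. Mcm6 then stood at 1.56 (1.14 to 2.15), Mcm3 at 1.24 (0.895 to 1.71) and Mcm7 at 1.20 (0.864 to 1.67). By reads, Cdc45, which travels with the ring, stood at 1.36, and Mcm10, needed to fire origins, at 1.31. Of the other GINS genes Gins1 stood at 1.29 and Gins4 at 1.28, while Gins3 had the lowest ratio of all 55 genes, with 123 S-phase and 200 G1 reads (0.805, 0.638 to 1.01). Without flanks the helicase median was 0.17.

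The clamp and its loader had the highest group median, 0.54 on the log2 scale, with 6 of 6 genes above 0 (62.7% of all genes) and 3 of 6 called higher (11.9% of all genes). Together they held 1806 S-phase and 1713 G1 reads, a ratio of 1.38 (1.29 to 1.48). The rank of the group was not kept with positions counted once. Its median was then 0.31, below the helicase (0.43), Okazaki (0.40) and nucleotide (0.37) groups. Without flanks its median was 0.46, below nucleotide supply (0.57) and the Okazaki group (0.49). Rfc4, a loader subunit (chr16:23113948-23127730), was highest in the group, with 249 and 172 reads (1.89, 1.55 to 2.31). Pcna, the ring that tethers polymerases to DNA (chr2:132249286-132253180), held 230 and 170 (1.77, 1.45 to 2.17). Rfc5 held 144 and 120 (1.57, 1.22 to 2.02). At the low end, Rfc1, the large loader subunit, held 809 and 863 (1.23, 1.113 to 1.352), and Rfc3 held 91 and 113 (1.05, 0.791 to 1.40). Rfc2 stood at 1.35. The ratios of the loader subunits thus ran from 1.05 to 1.89, and the intervals of Rfc3 and Rfc4 did not overlap, though they did with positions counted once (0.607 to 1.85 and 1.19 to 2.59). Pcna moved most of all members when positions were counted once, to 1.26 (57 positions in S phase and 43 in G1), whereas Rfc4 kept 1.75 (79 and 43 positions).

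The polymerase and primase genes had a median log2 ratio of 0.21. Of 9, none was called higher or lower, where 11.9% and 5.83% of all genes were, so that a count of 0 is near the share of all genes. Its 5442 reads in S phase and 6836 in G1 gave a ratio of 1.04 (1.01 to 1.08), much of it from Pola1 and Prim2, the 2 members over 100 kb long. Prim1, the catalytic primase subunit, was highest with 220 and 211 reads (1.36, 1.12 to 1.66), followed by Pole, the catalytic subunit of the leading-strand polymerase, with 516 and 553 (1.22, 1.08 to 1.38) and Pold2, a subunit of polymerase delta, with 298 and 328 (1.19, 1.01 to 1.40). Pold3, another subunit of polymerase delta, was lowest with 324 and 518 reads (0.819, 0.710 to 0.942). Pola1, the catalytic subunit of polymerase alpha, held 1567 and 2203 (0.931, 0.872 to 0.994). Pold1 (1.16), Pola2 (1.16), Pole2 (1.105) and Prim2 (1.07) lay between. The intervals of Pold3 and Pold2 thus lay on different sides of 1. This contrast did not remain when positions were counted once: Pold3 then stood at 0.982 (0.758 to 1.27) and Pold2 at 1.24 (0.842 to 1.82). On the minus strand alone the group median was -0.049. Pola1 is on chromosome X, which is outside the reads used for scaling.

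The genes of single-strand binding and Okazaki maturation had the second highest median, 0.49, with 2083 S-phase and 2026 G1 reads, a ratio of 1.35 (1.27 to 1.43). Rnaseh2a, the catalytic subunit of the enzyme that removes ribonucleotides from DNA (chr8:84956610-84969598), held 199 and 148 reads (1.76, 1.42 to 2.19). The 3 subunits of RPA, which coats single-stranded DNA, had like ratios: Rpa3 held 401 and 336 reads (1.56, 1.35 to 1.81), Rpa1 567 and 529 (1.40, 1.24 to 1.58), and Rpa2 318 and 299 (1.39, 1.19 to 1.64). Rpa3 (chr6:8255936-8259141) was also the densest member in reads per kb, at 2.71 RPKM in S phase and 1.73 in G1 (RPKM, reads per kb per 1000000 reads on chromosomes 1 to 19), where the median member had 0.517 and 0.420. It lies on few positions, 75 in S phase and 61 in G1, and counted that way its ratio was 1.17. Fen1, which trims Okazaki flaps, held 80 and 72 reads (1.45, 1.04 to 2.03), and Lig1, which seals the nicks, held 319 and 347 (1.20, 1.03 to 1.40). Dna2, a nuclease for long flaps, was the only one of the 7 below 1, with 199 and 295 (0.883, 0.734 to 1.06).

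Nucleotide supply held the single highest member. Rrm2, the cell-cycle-regulated subunit of ribonucleotide reductase (chr12:24708254-24714146), held 266 S-phase and 172 G1 reads, a ratio of 2.02 (1.66 to 2.47). Its partner Rrm1, the large subunit, held 199 and 275 (0.947, 0.785 to 1.14), and the 2 intervals did not overlap. They did with positions counted once, where Rrm2 stood at 1.65 (1.105 to 2.48) and Rrm1 at 1.06 (0.771 to 1.47). Tk1, thymidine kinase, held 137 and 109 reads (1.65, 1.27 to 2.14), while Tyms, thymidylate synthase, held 299 and 411 (0.952, 0.818 to 1.108). The group thus divided evenly, with a median log2 ratio of 0.32 between 2 called genes and 2 near 1.

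Of the chromatin genes, Uhrf1, which recognises hemimethylated DNA behind the fork, held 478 S-phase and 472 G1 reads (1.33, 1.16 to 1.51). It lost this on covered positions, where its 97 and 94 gave 0.981. Dnmt1, the methyltransferase that Uhrf1 recruits, held 447 and 448 (1.31, 1.14 to 1.49). The 2 subunits of the histone chaperone CAF-1 differed: Chaf1b held 239 and 260 (1.20, 1.01 to 1.44) and Chaf1a 226 and 336 (0.880, 0.740 to 1.05), with intervals that overlap. The group median was 0.33. Among the fork genes (median 0.18), Timeless, of the fork protection complex, held 265 and 234 reads (1.48, 1.24 to 1.77), and its partner Tipin 194 and 290 (0.876, 0.726 to 1.05), with no overlap of the intervals. Top2a, the topoisomerase that unlinks the daughter duplexes, held 573 and 611 (1.23, 1.09 to 1.38), and Wdhd1, which links polymerase alpha to the helicase, 325 and 409 (1.04, 0.896 to 1.21). On the plus strand alone the fork median was -0.023. The intervals of Timeless and Tipin overlapped when positions were counted once (0.944 to 1.89 and 0.685 to 1.36).

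The reads were not spread evenly along the genes but gathered at their starts. For 47 of the 55 genes a RefSeq promoter entry gave the start and direction, and windows of 1 kb to each side of the start and of the end were set against the body between them. The start windows make up 5.73% of these genes with flanks, yet held 30.3% (exact 95% interval 29.6 to 31.0) of their S-phase reads and 23.3% (22.7 to 23.9) of their G1 reads. Over the 17492 protein-coding genes with a direction, start windows of 3.94% of the length held 10.6% and 7.99%. The level at the start had a median of 1.44 RPKM in S phase and 1.02 RPKM in G1 for the replication genes, against 0.511 and 0.427 for protein-coding genes. Body levels were alike in both sets: 0.379 in S phase and 0.343 in G1 for the replication genes, 0.364 and 0.339 for protein-coding genes. The start was denser than the body in 43 of 47 replication genes in each library, against 68.7% of protein-coding genes in S phase and 64.7% in G1. The median of start level over body level was 3.78 in S phase and 3.30 in G1, against 1.59 and 1.37. The higher level of the replication genes at their starts was thus present in the G1 library as well.

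Between the libraries, the starts also moved more than the bodies. The start windows held 5004 S-phase and 4363 G1 reads, a ratio of 1.501 (1.44 to 1.56), the bodies 9703 and 12175, a ratio of 1.04 (1.02 to 1.07), and the end windows 736 and 982, a ratio of 0.981 (0.890 to 1.08). The median log2 ratio was 0.46 at starts, 0.14 in bodies and 0.026 at ends, against 0.39, 0.085 and 0.13 for protein-coding genes, whose start windows together gave a ratio of 1.40. The start's log2 ratio was above 0 in 40 of 47 genes (66.9% of protein-coding genes) and above that of the body in 33 of 47 (63.4%). Of the start windows, 39 of 47 held at least 50 reads in the libraries together, against 43.8% of protein-coding starts. Of these, 18 of 39 had a ratio of at least 1.5, against 46% of protein-coding starts, and 2 of 39, Prim1 and Gins3, had at most the inverse, against 7.66%. The interval lay above 1 for 25 of 39, against 49.8%, and below 1 for Prim1, against 5.65%. The share of starts that were higher by the size rule was therefore that of protein-coding genes at large. Of 43 bodies with at least 50 reads, 6 were higher (Mcm8, Mcm10, Rfc5, Prim1, Rrm2 and Tk1), against 9.69%, and 1 was lower (Pold2), against 4.47%. The interval lay above 1 for 13 of 43 bodies (28.2% of protein-coding bodies) and below 1 for 6 of 43 (13%).

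**Figure D2:**
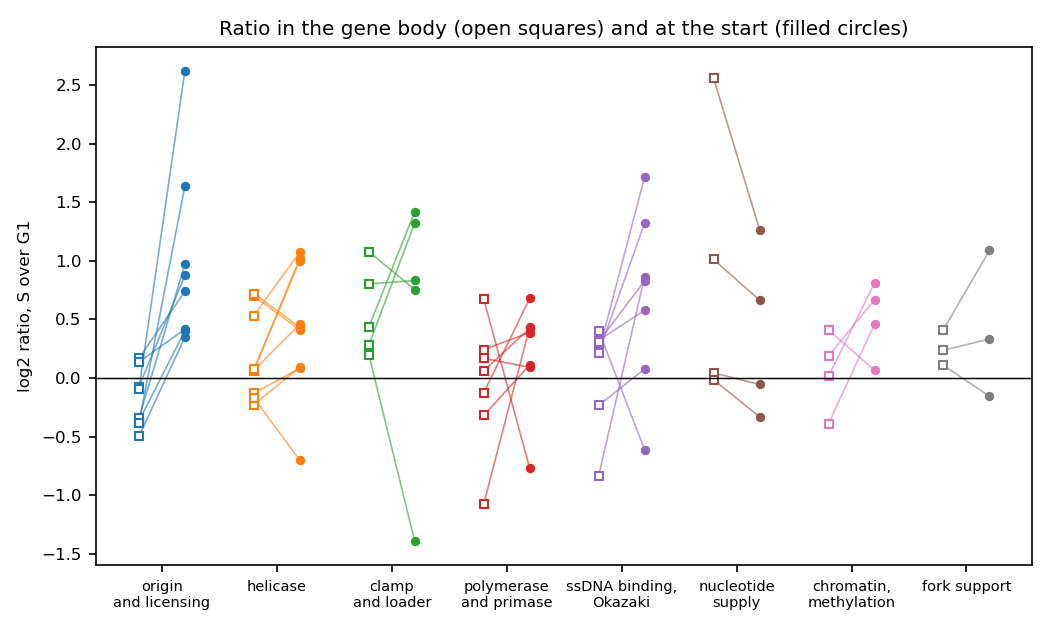
The log2 ratio, S phase over G1, of the 47 replication genes with a known direction, by role group: open squares are gene bodies, filled circles are windows of 1 kb to each side of the start, and a line joins the values of a gene. In 33 of 47 genes the circle is above the square, and all 8 origin genes show this.

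The origin genes showed the separation most plainly. At their starts they held 779 S-phase and 655 G1 reads, a ratio of 1.56 (1.40 to 1.73), with 8 of 8 above 1. In their bodies they held 2065 and 3012, a ratio of 0.897 (0.848 to 0.949). Orc2, for example, held 98 and 97 start reads (1.32, 0.988 to 1.77) but 310 and 524 in the body (0.774, 0.671 to 0.893), and Orc3 29 and 19 at the start (2.00, 1.08 to 3.77) but 377 and 627 in the body (0.787, 0.691 to 0.896). By reads, the near-equal ratio of the origin group over whole genes thus combined starts on the S-phase side with bodies mostly on the G1 side. The log2 ratio of the body was above 0 in 2 of 8 genes, Orc1 and Cdc6. With positions counted once, the bodies were near equal at 0.980 (729 positions in S phase and 707 in G1). The starts then stood at 1.59 (223 and 133 positions). Cdt1 held 49 S-phase and 20 G1 start reads (3.21, 1.87 to 5.70), and its body 16 and 28 (0.748, 0.378 to 1.43). Orc5 held 32 and 6 start reads (6.98, 2.88 to 20.4), with only 6 reads to set the lower value.

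The 5 densest starts in S phase were those of Rpa3, Uhrf1, Mcm3, Top2a and Cdc45. In G1 the start of Pold2 (4.44 RPKM) was denser than that of Cdc45 (3.23 RPKM). Rpa3 held 361 reads within 1 kb of its start in S phase and 259 in G1 (levels 8.78 and 4.81 RPKM, ratio 1.82, 1.55 to 2.15), which was 90.02% and 77.1% of all its reads. Uhrf1 held 317 and 261 (1.59, 1.35 to 1.88). Mcm3 held 307 and 377 (1.07, 0.914 to 1.24), so its start was dense in both libraries and, by reads, differed little between them. Top2a held 280 and 291 (1.26, 1.07 to 1.49), and Cdc45 267 and 174 (2.01, 1.65 to 2.45). Ratios above that of Cdc45 were found at other starts, among them those of Orc5 and Cdt1 given above. Rfc4 held 44 S-phase and 21 G1 start reads (2.74, 1.60 to 4.86) and Rfc1 45 and 23 (2.56, 1.52 to 4.43). Rpa1 held 180 S-phase and 71 G1 start reads (3.32, 2.51 to 4.43), Rnaseh2a 89 and 46 (2.53, 1.75 to 3.70), Mcm6 213 and 132 (2.11, 1.69 to 2.64) and Mcm5 195 and 125 (2.04, 1.62 to 2.58). In Rrm2, as in the rest of its group, the start's log2 ratio was not above that of the body. Rrm2 held 102 and 55 reads at the start (2.43, 1.73 to 3.43), but 62 and 13 in the body (6.24, 3.40 to 12.4). These body reads lay on only 16 and 4 positions, so the G1 value rests on few. In the other direction, Prim1 held 29 S-phase and 66 G1 start reads (0.575, 0.358 to 0.903), and Rfc3 8 and 30 (0.349, 0.138 to 0.779). By reads, subunits of the helicase ring thus differed at their starts, Mcm5 and Mcm6 being above 2 and Mcm3 and Mcm7 (182 and 225 start reads, 1.06) near 1. On covered start positions Mcm3 (40 in S phase and 24 in G1) was like Mcm6 (36 and 21). Mcm5 had 49 and 24 such positions, and Mcm7 56 and 40.

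**Figure D3:**
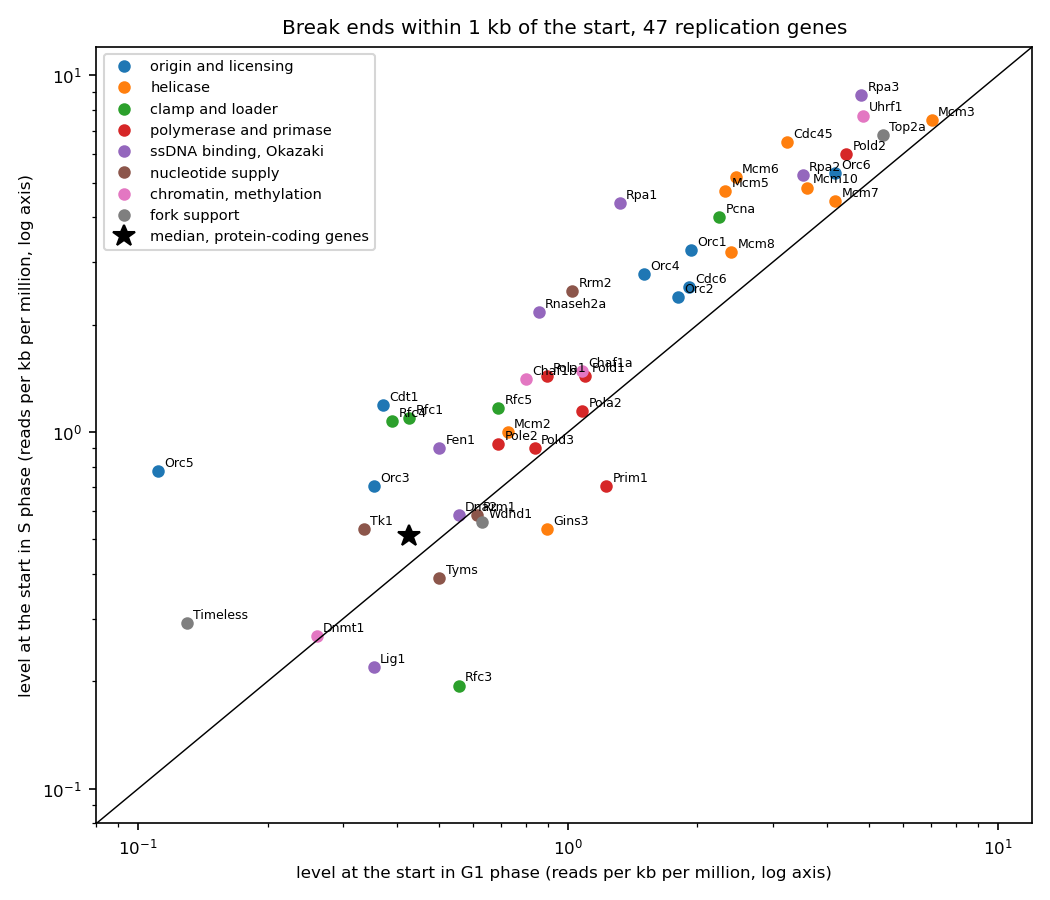
Level of break ends within 1 kb of the start in G1 (horizontal) and S phase (vertical), both log axes in RPKM, for 47 replication genes in 1 library each; the line marks equal levels and the star the median of protein-coding genes, 0.427 and 0.511. Genes above the line, 40 of 47 by log2 ratio, have the higher level in S phase, with Rpa1 and Orc5 far from it and Mcm3 and Mcm7 close to it.

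Within the start windows the reads lay in a narrow band just before the start. In both libraries and both reading directions the densest 100 bp were the last 100 bp before the start. In S phase 750 reads pointing away from the gene and 653 pointing into it fell there, and in G1 608 and 579. Reads pointing away from the gene extended further upstream, with 697 in S phase and 514 in G1 in the 100 bp before that, where reads pointing into the gene numbered 223 and 263. Reads pointing into the gene extended further downstream, with 363 in S phase and 374 in G1 in the first 100 bp after the start against 231 and 131 pointing away. A read runs away from the break end it marks, and reads that run away from the start point made up 58.2% (56.8 to 59.6) of start reads in S phase and 59.1% (57.6 to 60.6) in G1, against 55.7% and 55.2% for protein-coding genes. Reads pointing into the gene made up 41.8% in S phase and 46.7% in G1, against 49.5% and 49.8%. With positions counted once these shares of the replication genes were 44.8% (42.0 to 47.7) and 46.4% (42.9 to 50.0), with intervals that overlap. A smaller rise between 800 and 900 bp after the start, with 276 reads pointing away from the gene in S phase and 181 in G1, was mainly at Uhrf1, which held 221 and 136 of these. Its highest positions lie 841 and 862 bp after its first start, beside its next entry at 976 bp.

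**Figure D4:**
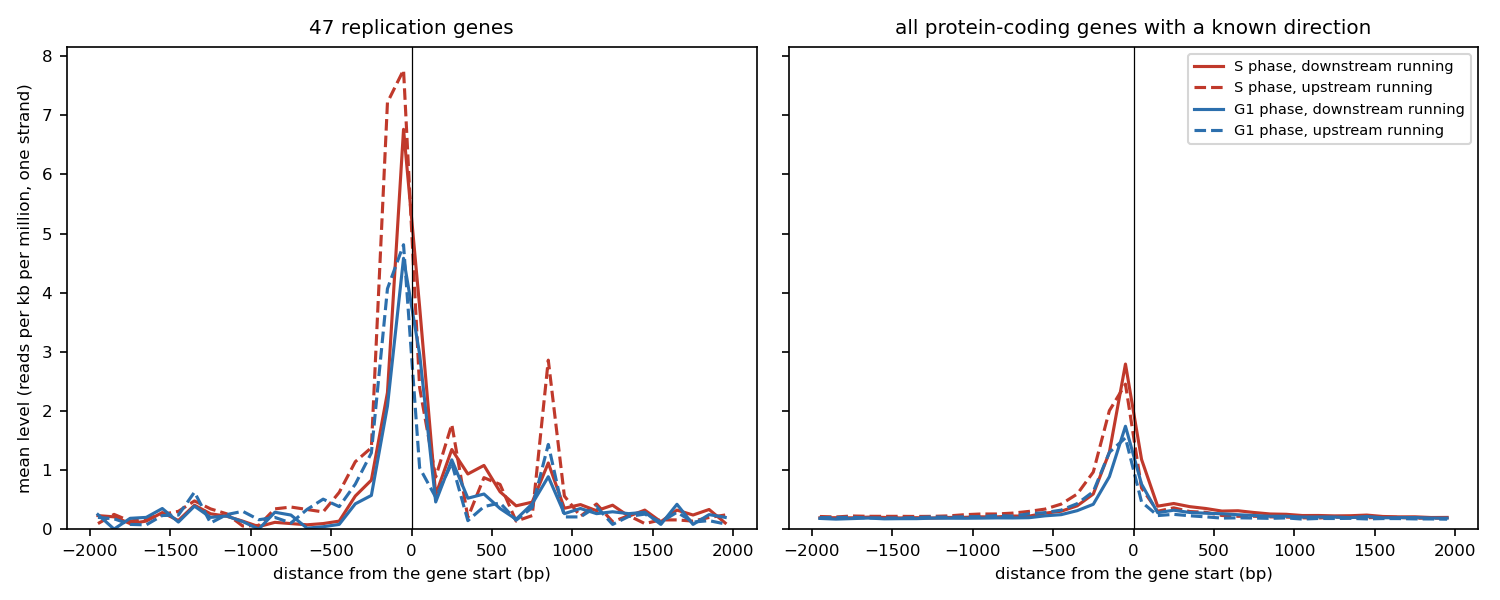
Mean level of break ends in bins of 100 bp from 2000 bp before to 2000 bp after the gene start, in RPKM on 1 strand, for 47 replication genes (left) and 17492 protein-coding genes (right). Solid lines are reads that point into the gene and dashed lines reads that point away from it, S phase in red and G1 in blue. The highest bin of the replication genes, 100 to 0 bp before the start, is at 7.77 and 6.76 in S phase and 4.81 and 4.58 in G1, against 2.45 and 2.79 in S phase for protein-coding genes.

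Some genes have more than 1 annotated start, and the 5′-most entry, used above, was not always where the reads were. Dnmt1 held 11 S-phase and 14 G1 reads at its first start, but 127 and 79 (2.10, 1.58 to 2.82) at the next entry, 6909 bp downstream. The reads of Dnmt1 thus marked its downstream start, and so did those of Lig1. Lig1 held 9 and 19 at its first start and 58 and 35 (2.17, 1.40 to 3.40) at one 1651 bp downstream. Timeless held 12 and 7 at its promoter entry and 67 and 55 (1.59, 1.0995 to 2.32) at the end of its span, at -6003 bp. For these 3 genes the values above therefore describe a start with few reads. In the 8 genes without a promoter entry, whose direction was not taken from elsewhere, reads gathered at 1 end: 216 in S phase and 162 in G1 at the right end of Gins2 (1.75, 1.42 to 2.15) against 8 and 13 at its left, 172 and 115 at the right end of Mcm4 (1.96, 1.54 to 2.501), 90 and 59 at the left end of Pole (2.00, 1.42 to 2.82), and 55 and 18 at the left end of Tipin (4.00, 2.31 to 7.24). Tipin was thus below 1 over its length and above 1 at 1 end. So were Orc2, Orc3, Orc4, Orc5, Pola1 and Chaf1a, among others. The start of Orc3 was not a dense end in G1, at 0.353 RPKM against 0.505 in its body. The interval of the Orc2 start held 1 (0.988 to 1.77). Among the 8 genes, Prim2 was the exception, being below 1 at its denser end, the right, with 57 and 112 reads (0.666, 0.476 to 0.924).

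**Figure D5:**
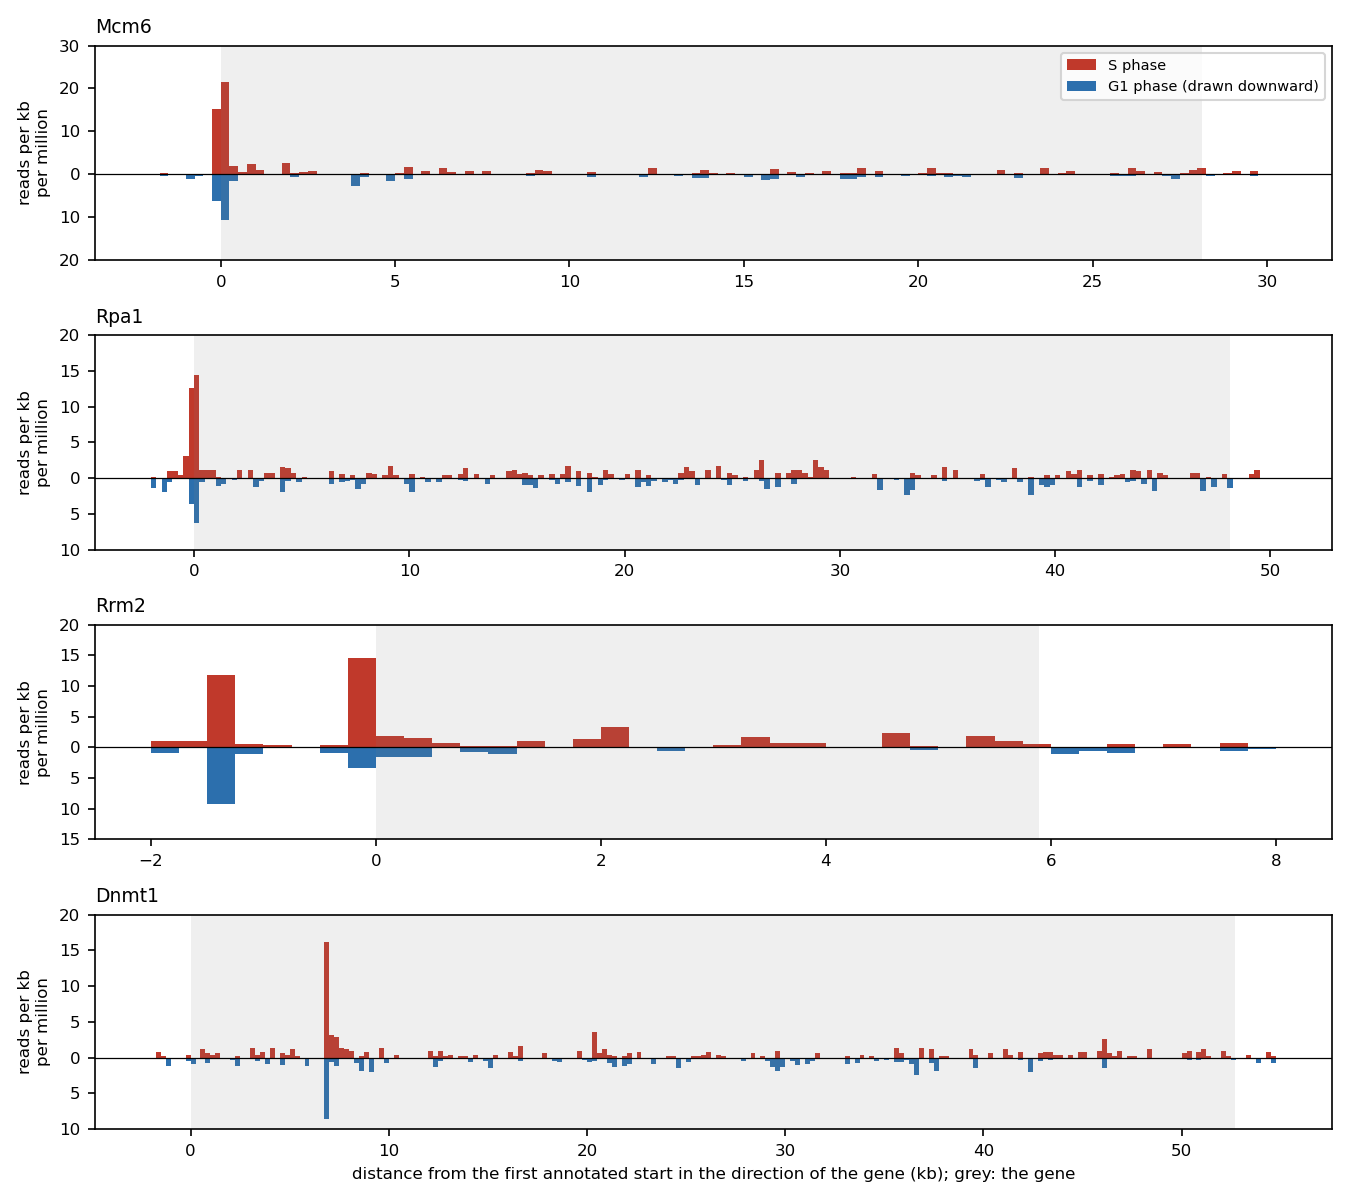
Level of break ends in bins of 250 bp along Mcm6, Rpa1, Rrm2 and Dnmt1 with 2 kb flanks, against the distance from the first annotated start in kb; S phase is drawn upward in red, G1 downward in blue, in RPKM, and grey marks the gene. Mcm6 and Rpa1 have 1 dense place at the start, and the dense place of Dnmt1 is at its second start, 6909 bp in. Rrm2 has reads through its body in S phase (62 on 16 positions) and few in G1 (13 on 4 positions).

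Since the reads gathered in the bases before the start, the promoters of the members with the densest S-phase starts are shown, to let the break positions be read against sequence. Each is the 250 bases before the RefSeq start, from GRCm38.p6, written 5′ to 3′ in the direction of the gene. Capitals mark E2F-type letters (TTTGGCGC, TTTCCCGC, TTTCGCGC or TTTGCCGC) and CCAAT, each on either strand, so that ATTGG is CCAAT on the other strand. Rpa3 lies at chr6:8259142-8259391 (- strand), Uhrf1 at chr17:56303087-56303336 (+ strand), Mcm3 at chr1:20820313-20820562 (- strand) and Top2a at chr11:99024190-99024439 (- strand).
Rpa3: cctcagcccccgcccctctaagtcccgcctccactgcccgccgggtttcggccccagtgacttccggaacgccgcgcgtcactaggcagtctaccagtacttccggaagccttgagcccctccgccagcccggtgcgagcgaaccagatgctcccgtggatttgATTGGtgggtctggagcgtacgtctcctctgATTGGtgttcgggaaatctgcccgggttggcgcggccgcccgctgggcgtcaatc
Uhrf1: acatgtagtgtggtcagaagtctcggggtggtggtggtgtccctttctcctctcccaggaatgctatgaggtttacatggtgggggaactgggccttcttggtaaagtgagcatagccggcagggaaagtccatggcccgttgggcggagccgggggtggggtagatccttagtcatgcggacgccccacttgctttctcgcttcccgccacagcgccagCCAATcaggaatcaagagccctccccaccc
Mcm3: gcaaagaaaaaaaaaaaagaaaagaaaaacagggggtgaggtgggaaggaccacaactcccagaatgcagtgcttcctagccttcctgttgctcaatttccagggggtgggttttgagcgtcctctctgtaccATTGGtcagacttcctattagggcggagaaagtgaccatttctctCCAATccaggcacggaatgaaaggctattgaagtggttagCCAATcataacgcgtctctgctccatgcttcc
Top2a: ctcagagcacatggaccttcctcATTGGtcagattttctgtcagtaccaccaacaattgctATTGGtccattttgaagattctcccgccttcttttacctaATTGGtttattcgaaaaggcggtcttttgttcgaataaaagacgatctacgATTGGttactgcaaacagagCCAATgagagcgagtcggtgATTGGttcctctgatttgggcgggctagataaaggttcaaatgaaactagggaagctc

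These 250 bases held 308 S-phase and 220 G1 reads in Rpa3, 216 and 229 in Mcm3, and 255 and 258 in Top2a, so that most start reads of these 3 genes lay in the letters shown. Uhrf1 held only 27 and 30 there, its reads being further downstream. Distances are counted from the start, with negative numbers before it. CCAAT occurs 6 times in Top2a, with its first base between -227 and -58, 3 times in Mcm3, 2 times in Rpa3 and 1 time in Uhrf1. None of the 4 holds the E2F-type letters. The highest S-phase position on the plus strand was at -133 in Rpa3 (31 reads), -145 in Mcm3 (42 reads) and -132 in Top2a (20 reads). In Mcm3 the same position, -145, was also the highest plus-strand position in G1, with 60 reads, and the highest minus-strand position was 11 bp after the start in both libraries, with 62 and 101 reads.

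Promoters of 3 genes with a start ratio above 2 are shown for comparison. They were chosen after their values were seen. Rpa1 lies at chr11:75348384-75348633 (- strand), Mcm5 at chr8:75109259-75109508 (+ strand) and Mcm6 at chr1:128359706-128359955 (- strand).
Rpa1: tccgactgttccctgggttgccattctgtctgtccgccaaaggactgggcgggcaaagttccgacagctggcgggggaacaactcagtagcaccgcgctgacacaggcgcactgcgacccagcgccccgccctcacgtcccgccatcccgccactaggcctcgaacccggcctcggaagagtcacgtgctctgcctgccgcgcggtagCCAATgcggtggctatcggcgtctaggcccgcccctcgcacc
Mcm5: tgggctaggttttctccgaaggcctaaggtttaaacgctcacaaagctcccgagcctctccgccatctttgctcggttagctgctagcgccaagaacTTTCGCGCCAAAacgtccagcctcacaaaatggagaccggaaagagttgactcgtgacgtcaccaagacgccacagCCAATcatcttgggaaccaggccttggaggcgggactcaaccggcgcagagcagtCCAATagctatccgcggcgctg
Mcm6: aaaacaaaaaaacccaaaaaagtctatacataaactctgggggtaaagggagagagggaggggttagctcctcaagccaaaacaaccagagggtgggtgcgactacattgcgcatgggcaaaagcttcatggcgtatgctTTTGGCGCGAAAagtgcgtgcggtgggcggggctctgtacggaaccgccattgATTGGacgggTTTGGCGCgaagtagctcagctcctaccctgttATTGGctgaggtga

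Mcm5 and Mcm6 carry the E2F-type letters, Mcm5 as 2 overlapping matches on opposite strands from -153 to -142 and Mcm6 as such a pair from -110 to -99 and another match from -47 to -40. Both also hold 2 CCAAT, and Rpa1 holds 1. In Mcm6 the highest S-phase plus-strand position was at -4, with 33 reads, and it was the highest in G1 too, with 21. The 250 bases held 65 S-phase and 24 G1 reads in Rpa1, 133 and 94 in Mcm5, and 78 and 42 in Mcm6.

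Over all 47 genes with a promoter entry, E2F-type letters were found in 9 (19.1%), against 2.43% of the 17492 protein-coding promoters. The 9 were Cdc6, Gins3, Mcm5, Mcm6, Mcm7, Orc1, Orc3, Pola1 and Rfc3. CCAAT was found in 28 (59.6%) against 36.5%, and GGGCGG, the letters bound by Sp1-type factors, in 32 (68.1%) against 42.7%, searched on both strands. The median G and C content of the 250 bases was 58% against 55.2%, and the median number of CpG 18 against 10. As a description without a test, the S-phase start level had a median of 3.62 RPKM in the genes with CCAAT and 0.900 in the 19 without it, and in G1 2.09 and 0.558. It was 2.55 with E2F-type letters and 1.30 without in S phase, and 1.91 and 0.939 in G1. With GGGCGG it was 1.80 and without 0.900 in S phase, and 1.05 and 0.688 in G1. These levels were not split in this way for protein-coding promoters at large. First starts were used, so Lig1 and Timeless, without CCAAT, and Dnmt1, with it, entered with few reads. The median S over G1 log2 ratio at the start was 0.52 with CCAAT and 0.43 without, 0.68 with E2F-type letters and 0.46 without, and 0.67 with GGGCGG and 0.42 without. The 9 genes with E2F-type letters included starts above 2, such as Mcm6, and starts below 1, Gins3 and Rfc3.

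The neighbourhood of the replication genes had a ratio near that around protein-coding genes. In the 500 kb to each side, the median log2 ratio around the replication genes was 0.14, against 0.12 around protein-coding genes. The gene's own ratio was above that of its surroundings in 36 of 55, against 55% of protein-coding genes, with a median difference of 0.16 against 0.034. Rfc4 stood 0.83 above its surroundings on the log2 scale, Rrm2 0.79 and Mcm6 0.75, and Gins3 stood lowest, at -0.54. Ratios also went with gene length. The 11 members under 10 kb, in which the start is a larger part, had a median log2 ratio of 0.64, against 0.19 for protein-coding genes of that length. The 27 members of 10 to 30 kb had 0.36 against 0.19, the 15 of 30 to 100 kb 0.22 against 0.14, and the 2 longest, Pola1 and Prim2, -0.0031 against 0.045. By reads, the difference from protein-coding genes was thus largest among short members. Its reason was not tested, and the length classes were not compared with positions counted once. In 31 of 55 genes another protein-coding gene overlaps the window, and 13 start windows hold the start of another gene, Umad1 beside Rpa3, Smyd4 beside Rpa1 and Ufd1 beside Cdc45 among them. Reads there cannot be given to either gene. Without these 13 genes the median start log2 ratio was 0.43.

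Genes of replication outside the list were described in the same way. Of 35 such genes, chosen by role, 34 held at least 100 reads, and 1 was called higher and none lower, where 11.9% and 5.83% of all genes were. The interval lay above 1 for 17 of 34 and below 1 for 3, against 31.7% and 13.3%. The median log2 ratio of the 34 was 0.22, below the 0.29 of the members and above the 0.11 of all genes. The highest was Slbp, which binds the stem-loop of histone mRNA, with 256 S-phase and 201 G1 reads (1.67, 1.38 to 2.02), followed by Recql4, a helicase of origin firing (122 and 113, 1.41), and Chtf8, of an alternative clamp loader (143 and 133, 1.41). The lowest was Rif1, a timing factor, with 422 and 738 (0.748, 0.662 to 0.845), then Rnaseh2b, a subunit beside Rnaseh2a (314 and 512, 0.803), and Cdca7, a partner of the remodeller Hells (104 and 169, 0.805). At their starts these genes had the same median log2 ratio as the members, 0.46 over 26 genes, and a like median level in S phase, 1.44 RPKM.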

How the data were processed

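END-seq of 2 libraries, 1 of activated cells labelled S phase and 1 of quiescent cells labelled G1, was analysed. The authors deposited 1 bedGraph file per library and strand, whose values per the file headers and the values themselves are raw counts, in whole numbers, of the read ends at every base. Bowtie 1.1.2, SAMtools 1.11, bedtools and mm10 are named in the submitters' processing notes. The treatment of duplicate and multiply mapped reads is not given in the sources used here, and no molecular identifiers were available.

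Rows of several bases were expanded, and the deposited counts were summed over RefSeq genes of GRCm38.p6 with 2 kb flanks (Python 3.11.15, numpy 2.4.6, pandas 2.3.3), scaled to reads on chromosomes 1 to 19, with a pseudocount of 1 read for log2 ratios. Ratios carry the exact conditional 95% interval of 2 Poisson counts and shares Clopper-Pearson intervals (scipy 1.17.1). A count of 0 allows up to 3 reads, 0.146 per 1000000 reads in S phase and 0.112 in G1. Plots used matplotlib 3.10.9. The counting was tested on simulated data. No test was run, since each group has 1 library. Alternatives covered the scaling, stacked reads, strand, flanks, read minimum, pseudocount, fold and start windows.

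The members, the gene lists and the rules were chosen with earlier results of these data known. Full values are given for the 3 highest and 2 lowest ratios of each group of 6 or more, the highest and lowest of smaller groups, the 5 densest starts in S phase, the 3 genes that moved most with positions counted once, and the 3 highest and 3 lowest of the other replication genes. Other members named with values were chosen after these were seen, as were the minimum of 50 reads for starts and bodies and the alternative start at the end of the gene span.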

Additional observations from a re-analysis of the deposited data

How the results depend on the processing

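No paired analysis was possible because there is 1 library per group. Over 22 results, 173 alternatives were sorted by fixed rules: 161 left the result in place, 7 moved it and 5 changed its sign. A count stayed in place when equal or within a factor of 1.5, and a strand share when within its own interval. A median stayed when it lay between the medians of the single genes' interval bounds, which are not an interval of the median. Some alternatives could not move a result, such as the pseudocount for calls, which use ratios without it. The tally is thus a loose check. The members called higher numbered 5 of 50 with at least 100 covered positions when each was counted once, 3 of 35 with at least 500 reads, 1 at a fold of 2, and 35 where the interval was used in place of the fold. The members called lower numbered 2 on the plus strand alone and 4 by the interval. The origin median was -0.023 when scaled to the median gene, the fork median -0.023 on the plus strand, the polymerase median -0.049 on the minus strand, and the helicase median 0.17 without flanks. The median at gene ends was -0.071 with windows of 500 bp and -0.073 with positions counted once. Of 140 alternatives for single genes, 127 left the value within its interval, 12 moved it and 1 changed its sign: Orc2, 0.045 with positions counted once. Why these values moved was not tested. The median at starts stayed between 0.43 and 0.56 under all alternatives run. Depth limits single starts: 39 of 47 hold at least 50 reads, and among the others the ratios carry wide intervals.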
